A study of Gallus gallus with 30 samples.

Results

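The granulosa layer of the largest yolk-filled follicle of the chicken ovary (F1, the next to ovulate) was compared with that of the F2 and F3 follicles, which stand next in line. The comparison used the 3 F1 libraries against the 6 libraries of F2 (3) and F3 (3) taken as 1 group, 9 of the 30 libraries of the series, all from Luhua hens at 31 weeks of age. F1, F2 and F3 carried no treatment and, by the labels, differed in follicle rank alone, and each had 3 biological replicates. The sources used here do not say whether 1 hen gave libraries of several ranks, nor how long before ovulation the F1 follicles were taken. RNA-seq was strand-specific and depleted of rRNA. The unit is FPKM, fragments per kilobase of transcript, scaled to the mapped fragments of the library. Of 23910 genes, 11829 had FPKM > 0.5 in at least 2 libraries of F1, of F2 or of F3 and were tested.

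In the hen, yolk-filled follicles form a size hierarchy and ovulate in turn. Each oocyte is wrapped by a layer of granulosa cells, which supports its growth, contributes to the progesterone of the preovulatory period and secretes proteins of the inner egg coat, ZP3 among them. Granulosa cells of the largest follicle are known for a high steroid output and for their response to luteinizing hormone, and proliferation is known to be lower in them than in smaller follicles. Of the identifiers, 36 could be paired with an entry of the study, 32 of them with a gene symbol and the rest without a name. All 36 came from a list that the study itself drew from these libraries, as genes among the 100 most abundant in every stage. Steroidogenic, cell cycle and cell type marker genes are not among them and were not analysed here by name. In bulk samples, fewer cells of a type and less RNA per cell cannot be told apart.

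Before the genes, the libraries themselves were compared. Spearman coefficients over the genes tested, given as a description, were 0.943, 0.939 and 0.981 among the F1 libraries. The library labelled F2 replicate 3 had coefficients of 0.944, 0.963 and 0.965 with the F1 libraries, a mean of 0.957, and a mean of 0.909 with the other F2 libraries. F3 replicate 2 had means of 0.947 with F1 and 0.927 with its own stage. The other 4 libraries of F2 and F3 were each nearer to their own stage. Their means with F1 were 0.903 and 0.904 for F2 replicates 1 and 2 and 0.865 and 0.917 for F3 replicates 1 and 3. F2 replicate 3 thus stood nearer to F1 than to its own stage, and results are given with and without it. F1 replicates 2 and 3, F2 replicate 3 and F3 replicate 3 belong to the libraries with more than 93% of bases at Q30 (a base quality) in the study's library table. This split into a higher and a lower Q30 group was made here, and no label names a run or batch. F3 replicate 3, which shares that group, had coefficients of 0.915 to 0.922 with the F1 libraries. The part of this Q30 group in the likeness was not tested.

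**Figure D1:**
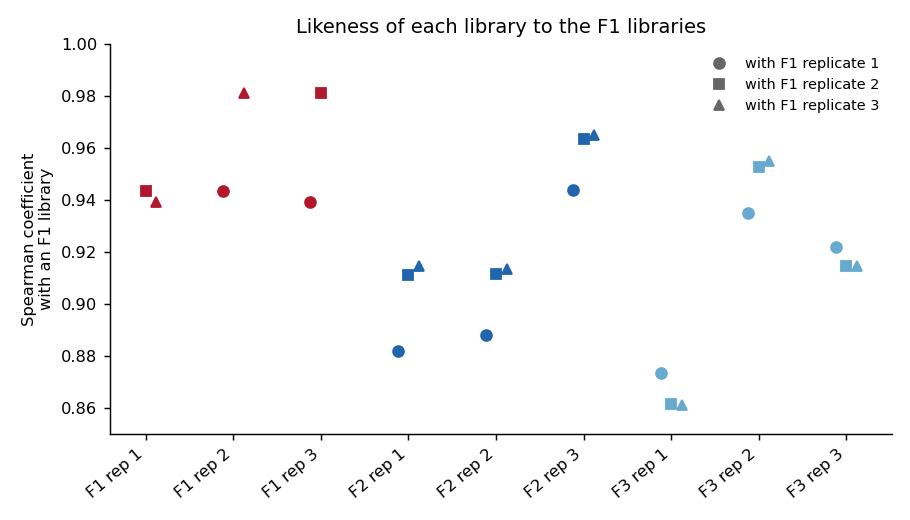
Spearman coefficient (y axis) of each of the 9 libraries (x axis) with the F1 libraries, over 11829 genes; the shape of a point gives the F1 replicate. F2 replicate 3 (0.944 to 0.965) and F3 replicate 2 (0.935 to 0.955) sit at the height of the F1 libraries, and F3 replicate 1 lies lowest (0.861 to 0.873).

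With all 9 libraries, few genes passed the adjusted threshold between F1 and F2 with F3. Differentially expressed genes (DEGs; more than 1.5-fold apart in FPKM + 1, at a limma p below 0.05 after Benjamini-Hochberg adjustment) numbered 6, of which 4 were higher and 2 lower in F1, 0.0507% of the genes tested. After each library was scaled to a common upper quartile there were 5 (4 higher and 1 lower, 0.0423%). The lower gene called after scaling, also 1 of the 2 lower before it, was ENSGALG00000052797. It was listed at 0 in all F1 libraries, and nothing is concluded from its p below. At an unadjusted p under 0.05 there were 2132 genes (18.0%), 668 higher and 1464 lower in F1. The median log2 fold change of all genes was -0.14, and after upper quartile scaling it was -0.06, with 902 genes higher and 1182 lower at the unadjusted threshold. After quantile normalization, which gives all libraries the same distribution, there were 975 higher and 874 lower. The balance of directions at the unadjusted threshold thus moved with the scaling. Within the libraries of lower Q30, F1 replicate 1 against 4 libraries of F2 and F3, 13 genes were called, the lone F1 library being assumed to vary like the others. Within those of higher Q30, 2 F1 libraries against 2, limma called 1 gene, and with a term for this group over all 9 libraries it called 3.

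Against each neighbour alone, with the 3 ranks fitted as separate groups, F1 had 3 DEGs against F2 (1 higher and 2 lower, 0.0254%) and 1 DEG, which was lower, against F3 (0.00845%). The 1 DEG against F3, and 1 of the 2 lower against F2, was again ENSGALG00000052797 with its listed 0 in F1. These counts depended on the fit. With only the 6 libraries of the pair, F1 had 193 DEGs against F3 (70 higher and 123 lower) and 1 against F2, and with the 3 ranks but without F2 replicate 3 it had 793 against F2. Both comparisons share the F1 libraries. Between F2 and F3 limma called 0 genes, with 1000 genes at an unadjusted p under 0.05, and 2 genes with the replicate number as a block. All 3 F1 libraries lay above all 6 libraries of F2 and F3 at 291 genes (2.46%) and below all of them at 550 genes (4.65%). After upper quartile scaling these counts were 413 and 462.

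The count of DEGs depended most on F2 replicate 3 and also on how the spread was estimated. With 1 spread over all 30 libraries of the series, 209 genes were called between F1 and F2 with F3 (102 higher and 107 lower). F2 replicate 3 was set apart for its likeness to F1, and leaving out such a library can by itself raise the count. The counts without it are thus a description and no rate of calls. F3 replicate 2, also nearer to F1 than to its own stage, was kept in these fits. Without F2 replicate 3 there were 1059 DEGs (8.95%), 339 higher and 720 lower in F1, and 978 (8.27%), 446 higher and 532 lower, after upper quartile scaling. The share of higher genes was 32.0% before and 45.6% after that scaling, and under quantile normalization F1 was above at 455 genes and below at 391, so that the balance of directions turned with the scaling. Of the 1059, 871 were also called after scaling, and all 6 DEGs of the 9 libraries were among them. The median log2 fold change was 1.301 for the 339 higher genes and -1.19 for the 720 lower genes, and 58 and 82 of them exceeded a 4-fold change of FPKM + 1. With a further term for the Q30 group, 345 genes were called without F2 replicate 3, and 338 of these were among the 1059. Leaving out any other library gave between 1 and 11 DEGs. The count was 11 without F1 replicate 1, 1 without F1 replicate 2, 1 without F2 replicate 2, 2 without F3 replicate 2, 3 without F2 replicate 1 or F3 replicate 1 or 3, and 5 without F1 replicate 3. The 1 gene called without F1 replicate 2, and without F2 replicate 2, was ENSGALG00000052797.

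F2 replicate 3 was not used in the fit that gave the 1059 genes. It had been set apart for its likeness to F1, however, so its values at them are a description of the same likeness by gene and no further support for it. Each library was placed on a scale where 0 is the mean of the other 5 libraries of F2 and F3 and 1 is the mean of F1. At the 339 genes that were higher in F1, the median position of F2 replicate 3 was 0.85, and it was nearer to F1 at 274 genes (80.8%). At the 720 lower genes its median position was 0.97, and it was nearer to F1 at 644 (89.4%). After upper quartile scaling the medians were 0.86 and 0.96.

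The F4 and F5 libraries, also unused in the choice, all had medians below 0, before and after upper quartile scaling. At the higher genes the medians were -0.15, -0.29 and -0.28 for the F5 libraries and -0.23, -0.24 and -0.09 for the F4 libraries. At the lower genes they were -0.38, -0.42 and -0.25 for F5 and -0.41, -0.41 and -0.13 for F4. The mean at 0 includes F3 replicate 2, which lay at 0.27 at the higher and 0.33 at the lower genes. F3 replicate 1 lay at -0.20 and -0.19, so a median below 0 does not by itself set F4 and F5 apart from F3. The postovulatory follicles (POF) had 0.09, 0.03 and 0.29 at the higher and -0.01, 0.14 and 0.29 at the lower genes. After upper quartile scaling the POF values were -0.02, -0.05 and 0.15 at the higher and 0.10, 0.24 and 0.43 at the lower genes, so the side of 0 on which they fell moved with the scaling. Hence the F4, F5 and POF medians were all nearer to 0 than to 1. By gene, however, the POF libraries were nearer to F1 at 31.0 to 40.4% of the higher and 34.9 to 39.7% of the lower genes. For the F4 and F5 libraries these shares were 2.65 to 13.9% and 3.89 to 9.44%. The libraries of F4 and POF with the values nearest to F1, replicate 3 of each, are also the ones with the higher Q30, and the part of that was not tested.

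**Figure D2:**
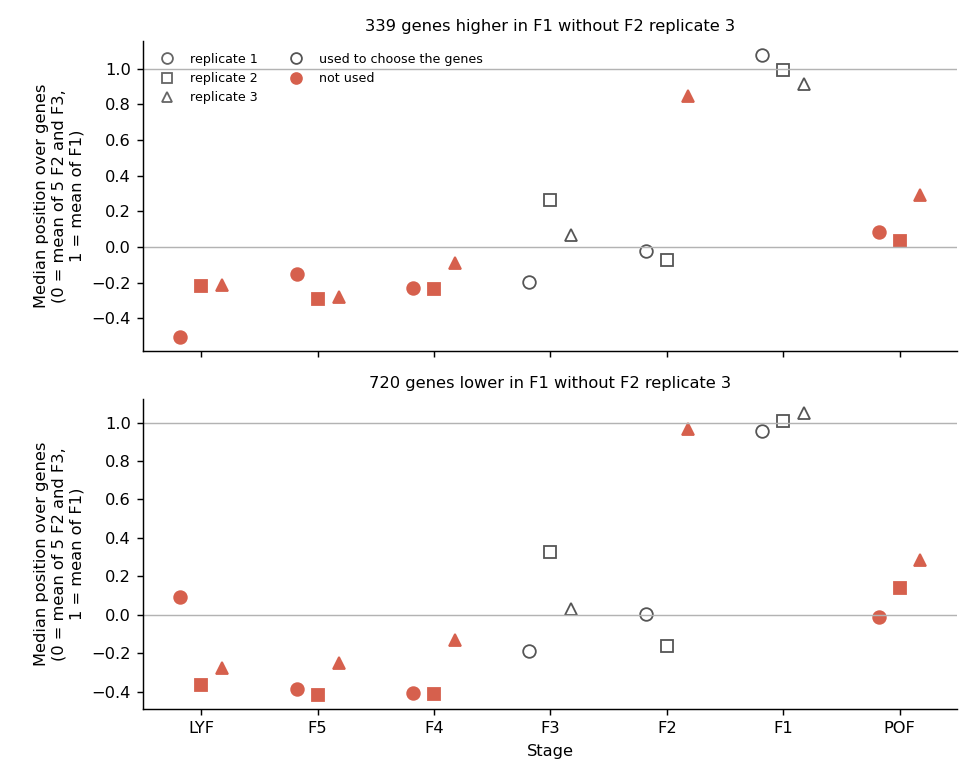
Median position of each library (points, shaped by replicate) from large yellow follicles (LYF) to POF, at the 339 genes higher (top) and 720 genes lower (bottom) in F1 without F2 replicate 3; on the y axis 0 is the mean of 5 libraries of F2 and F3 and 1 the mean of F1. Open points were used to choose the genes. F2 replicate 3 lies at 0.85 and 0.97, while the F4 and F5 libraries lie below 0.

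Among the DEGs of the 9 libraries, 2 identifiers that were higher and 1 that was lower in F1 met the rule for printing. ENSGALG00000020002 had 9.48, 12.5 and 7.23 FPKM in F1, against 0, 0.18 and 0.96 FPKM in F2 and 0.24, 1.91 and 0.41 FPKM in F3. Identifiers were printed only where F1 did not overlap with F2 and F3, so that this separation comes with the choice, and the gene passed the filter on low values through F1 alone. The log2 fold change of FPKM + 1 was 2.80 (SE 0.33, limma adjusted p = 0.014), and 2.87 after upper quartile scaling. The call held in 7 of 9 fits that left out 1 library and was lost without F1 replicate 2 (adjusted p = 0.18) or F2 replicate 2 (adjusted p = 0.0532). The gene was printed for its call and fold, and these fits share most of their libraries, so they are no further support. Across the stages the gene averaged 5.05 FPKM in small white follicles (SWF), 0.32 FPKM in LYF, 0.23 FPKM in F5, 0.11 FPKM in F4, 0.85 FPKM in F3, 0.38 FPKM in F2, 9.74 FPKM in F1 and 2.52 FPKM in POF. It was thus low through most of the hierarchy and higher at both the small white and the F1 stage.

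ENSGALG00000042458 had 41.3, 43.7 and 44.6 FPKM in F1, against 8.44, 9.44 and 19.4 FPKM in F2 and 7.15, 9.83 and 5.99 FPKM in F3. The absence of overlap again comes with the choice, and F2 replicate 3 was the highest of the other libraries. Its log2 fold change was 2.09 (SE 0.29, adjusted p = 0.036). This call was near the threshold. It held in only 1 of the 9 fits that left out 1 library (without F2 replicate 3, log2 fold change 2.29), and the adjusted p reached 0.27 without F1 replicate 2, while the fold change stayed between 1.98 and 2.29. By stage it averaged 24.6 FPKM in F5, 17.8 FPKM in F4, 7.66 FPKM in F3 and 12.4 FPKM in F2. In F1 it averaged 43.2 FPKM and in POF 117 FPKM. The F4 libraries ran from 5.36 to 38.2 FPKM and overlapped with those of F3 and F2. The means thus show no sure fall from F4 to F3 and F2. The POF libraries (52.2 to 198 FPKM) lay above those of F1.

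ENSGALG00000052797 was listed at 0 in all 3 F1 libraries, against 49.3, 134 and 77.9 FPKM in F2 and 72.9, 63.4 and 30.2 FPKM in F3 (adjusted p = 1.95e-05). It was the only gene listed at 0 in all F1 libraries and over 0.5 FPKM in all 6 of F2 and F3. It passed the filter on low values through F2 and F3 alone, and its lack of overlap comes with the choice. Its call held in all 9 fits that left out 1 library, an outcome that 3 equal values of 0 in F1 made all but certain. The same identifier was also listed at 0 in 4 of the 21 libraries outside the comparison. In the 23 libraries where it was not at 0 it ran from 30.2 to 147 FPKM, with no low values between. An exact 0 in a file without counts can be a failed estimate, so no fold is given and nothing is concluded from the p.

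**Figure D3:**
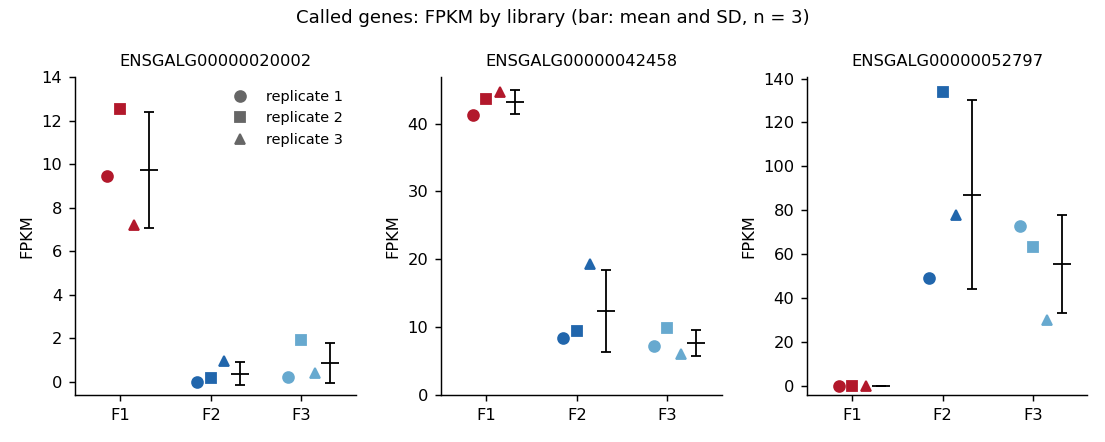
FPKM (y axes) of the 3 printed DEGs in each library of F1, F2 and F3; points are libraries, and black bars are the mean and SD of 3. The F1 libraries lie above all others at ENSGALG00000020002 (7.23 to 12.5 FPKM) and ENSGALG00000042458 (41.3 to 44.6 FPKM) and are at 0 at ENSGALG00000052797.

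Among genes with a name, the egg coat gene ZP3 was the most abundant in both groups. It had 61147, 67865 and 79014 FPKM in F1, against 45602, 29862 and 90654 FPKM in F2 and 17364, 52493 and 33161 FPKM in F3. The F1 libraries lay above 5 of the other libraries and below F2 replicate 3, so that the groups overlap. Means were 69342 ± 9025 FPKM in F1 (SD, n = 3) and 44856 ± 25588 FPKM in F2 and F3 (SD, n = 6). The log2 fold change of 0.81 (95% interval -0.42 to 2.04, limma adjusted p = 0.45) did not pass the test, nor did the 1.05 without F2 replicate 3 (adjusted p = 0.17). After quantile normalization the log2 fold change was 0.28. That step gives the most abundant gene of every library the same value. ZP3 was the most abundant of the named genes in every library but F3 replicate 1, where COX1 had 31563 FPKM. The 0.28 thus cannot show how ZP3 differed among the other libraries. Leaving out F2 replicate 3, the only library above F1, raises the fold change by itself, so the 1.05 is a description. ZP3 alone took 12.5 ± 1.51% of summed FPKM in F1 and 8.41 ± 4.65% in F2 and F3. The difference in this share was within the spread of the libraries (exact two-sided permutation test, p = 0.21, adjusted p over 5 measures 0.27).

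The second most abundant gene in F1, ENSGALG00000010237, has no name in the files. It had 25503, 24323 and 24809 FPKM in F1, against 14784, 14353 and 23272 FPKM in F2 and 14296, 21413 and 16338 FPKM in F3. The F1 libraries were all higher than the other 6, by little in the case of F2 replicate 3. The log2 fold change was 0.54 (SE 0.37, adjusted p = 0.44) and did not pass the test. Its stage means were 7068 FPKM in F5, 7881 FPKM in F4, 17349 FPKM in F3, 17470 FPKM in F2, 24878 FPKM in F1 and 2511 FPKM in POF. ZP3 followed the same order, with 12769 FPKM in F5, 16692 FPKM in F4, 34339 FPKM in F3, 55373 FPKM in F2, 69342 FPKM in F1 and 3831 FPKM in POF. These courses are a description, and the SD of ZP3 in F2 (31552 FPKM) exceeded the step between the means of F2 and F1.

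SPARC, APLP2 and CTSB had lower means in F1 than in F2 and F3, within the spread of all 9 libraries. They are single genes and do not stand for a class. Of the 19 nuclear genes with a symbol, 13 had a negative log2 fold change, these among them, and the median over all genes was -0.14. SPARC, a secreted protein that binds collagen, had 4258, 4447 and 4594 FPKM in F1, against 7396, 6960 and 3458 FPKM in F2 and 7607, 6137 and 6787 FPKM in F3. All F1 libraries were below 5 of the others and above F2 replicate 3. Its log2 fold change was -0.48 (adjusted p = 0.44), and -0.65 without F2 replicate 3 (adjusted p = 0.13). APLP2, a membrane protein of the amyloid precursor family, had 691, 521 and 586 FPKM in F1, against 1161, 1027 and 510 FPKM in F2 and 1040, 763 and 1136 FPKM in F3. Here too all F1 libraries were below 5 of the others and above F2 replicate 3. Its log2 fold change was -0.60 (adjusted p = 0.29), and -0.77 without F2 replicate 3 (adjusted p = 0.055). At SPARC and APLP2, leaving out F2 replicate 3 moves the fold change away from 0 by itself, so those values are a description. CTSB, the lysosomal protease cathepsin B, averaged 818 ± 241 FPKM in F1 and 979 ± 203 FPKM in F2 and F3, with a log2 fold change of -0.27 (adjusted p = 0.61). SPARC averaged 8355 FPKM in F5, 8006 FPKM in F4, 6844 FPKM in F3, 5938 FPKM in F2, 4433 FPKM in F1 and 3874 FPKM in POF, and APLP2 averaged 802 FPKM in F5, 819 FPKM in F4, 979 FPKM in F3, 899 FPKM in F2, 599 FPKM in F1 and 669 FPKM in POF.

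**Figure D4:**
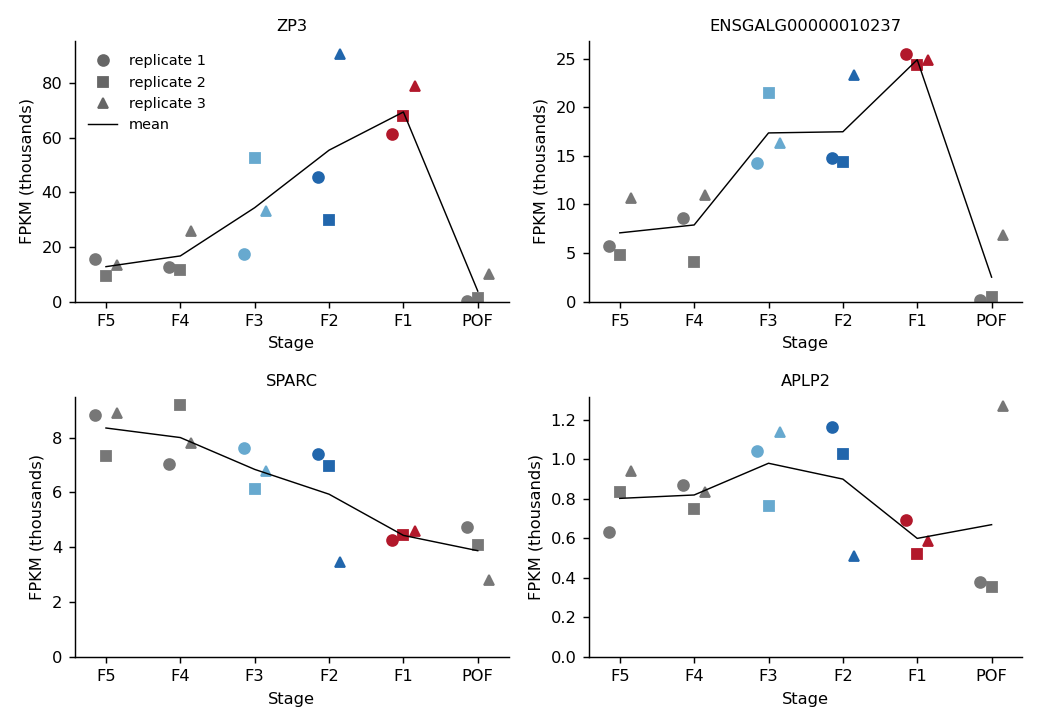
FPKM divided by 1000 (y axes) of ZP3, ENSGALG00000010237, SPARC and APLP2 in each library of F5, F4, F3, F2, F1 and POF; points are libraries shaped by replicate and the line joins the means of 3. The means of ZP3 and ENSGALG00000010237 are highest in F1, those of SPARC and APLP2 are lower in F1 than in F2 to F5, and F2 replicate 3 lies past all F1 libraries in SPARC, APLP2 and ZP3.

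The 13 mitochondrially encoded genes, which carry subunits of the respiratory chain and of ATP synthase, were the only list with all members paired. They took 19.6 ± 0.47% of summed FPKM in F1 and 20.0 ± 2.73% in F2 and F3 (exact permutation test, p = 0.81). This share leaves out 3 further identifiers of the mitochondrial genome that have no symbol. The share in F1 replicate 1 (19.3%) included 2.57% from ATP6, against 0.32% and 0.31% from it in F1 replicates 2 and 3. The small SD and the near means thus include that high value, and the share without ATP6 was not tested. None of the 13 passed the test, which 0.0507% of all genes passed, so that this count says nothing particular to them. Of them 7 had a positive and 6 a negative log2 fold change, with a median of 0.01 beside -0.14 over all genes tested, and 0.11 beside -0.06 after upper quartile scaling. The 7 complex I subunits lay between -0.43 (ND6) and 0.38 (ND1), and the 3 cytochrome oxidase subunits between -0.26 (COX3) and 0.12 (COX2). In F3 replicate 1, 9 of the 13 had their highest value of the 9 libraries, and without that library the difference in share was 0.55 percentage points in place of -0.41.

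ATP6, a subunit of ATP synthase, had 14247, 1752 and 1740 FPKM in F1, against 1165, 994 and 1290 FPKM in F2 and 1319, 1191 and 1364 FPKM in F3. All F1 libraries were above the others, with F1 replicate 1 far above its own replicates. The log2 fold change of 1.53 (SE 0.56, adjusted p = 0.21) rested on that library and was 0.52 without it (adjusted p = 0.29). Across the 30 libraries ATP6 exceeded 10000 FPKM in 3, of which 2 were outside F1, and lay between 573 and 2369 FPKM in all others. ATP8, its neighbour on the mitochondrial genome, had 18719, 19722 and 19276 FPKM in F1 with no such jump in replicate 1, and 14199 to 23105 FPKM in F2 and F3.

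The 7 named genes of protein synthesis were not called, beside 0.0507% of all genes, which says nothing particular to them. The 5 ribosomal protein genes (RPL6, RPL23, RPLP1, RPS3A and RPS10) all had negative log2 fold changes, from -0.51 (RPS3A) to -0.17 (RPLP1). Their limma adjusted p ran from 0.39 to 0.82. The median was -0.33 beside -0.14 over all genes tested, and -0.23 beside -0.06 after upper quartile scaling. RPL6 had 646, 661 and 594 FPKM in F1, against 594, 942 and 373 FPKM in F2 and 1490, 723 and 1547 FPKM in F3. The F1 libraries lay within the range of F2, and F3 replicates 1 and 3 stood above. Of these 5 genes, 4 were highest in F3 replicate 1. EEF1A, the factor that brings aminoacyl-tRNA to the ribosome, differed by -0.50 on the log2 scale (adjusted p = 0.46), and EIF4A2, a helicase of translation initiation, by 0.00 (95% interval -0.55 to 0.55).

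Chaperones and genes often used as a reference did not pass the test either. HSP90AA1, a cytosolic chaperone, averaged 779 ± 194 FPKM in F1 and 598 ± 199 FPKM in F2 and F3 (log2 fold change 0.41, adjusted p = 0.48). CALR, a calcium-binding chaperone of the endoplasmic reticulum, had a log2 fold change of -0.09, and PPIB, a prolyl isomerase of the same compartment, one of 0.18. FTH1, the heavy chain of the iron store ferritin, averaged 1124 ± 132 FPKM in F1 and 886 ± 269 FPKM in F2 and F3 (0.39, adjusted p = 0.46), and the redox protein TXN 957 ± 54.9 FPKM in F1 and 1097 ± 343 FPKM in F2 and F3 (-0.13, adjusted p = 0.84). GAPDH, an enzyme of glycolysis, averaged 801 ± 111 FPKM in F1 and 658 ± 140 FPKM in F2 and F3 (0.30, adjusted p = 0.52), and the actin gene ACTB 891 ± 172 FPKM in F1 and 1084 ± 318 FPKM in F2 and F3 (-0.25, adjusted p = 0.67). Of the 19 nuclear genes with a symbol, 6 had positive and 13 negative values. A p that misses the threshold does not show equal levels, and the 95% intervals of these genes were wide.

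**Figure D5:**
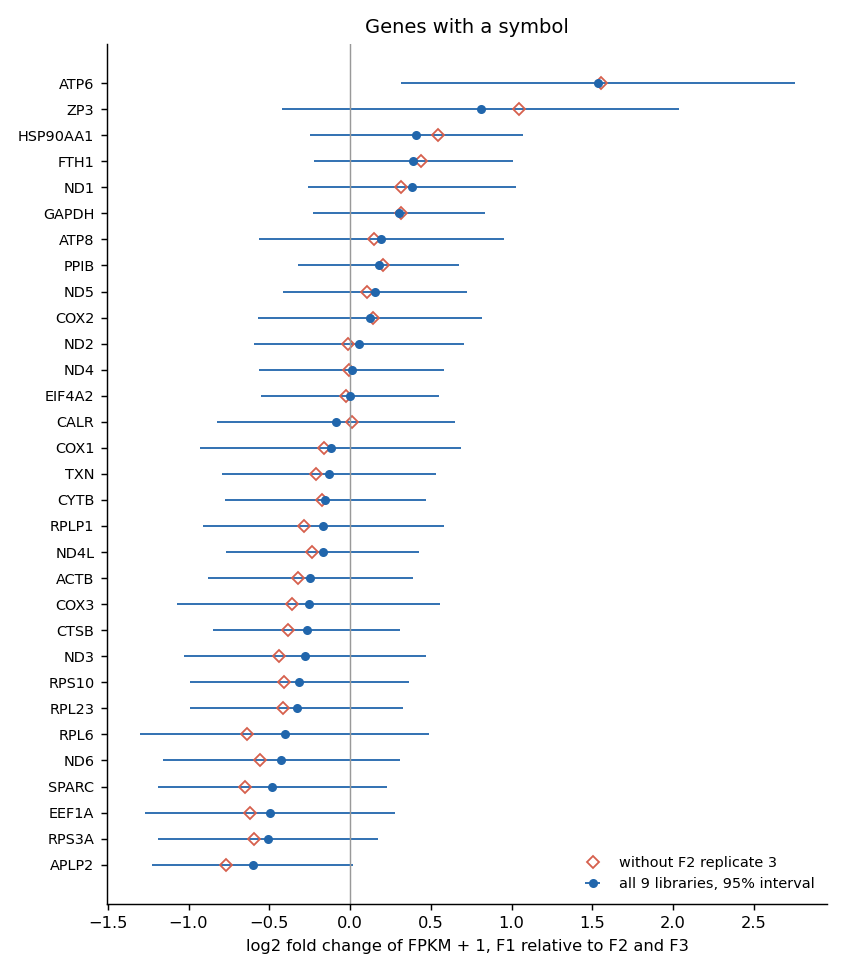
Log2 fold change of FPKM + 1 (x axis), F1 relative to F2 and F3, of 31 genes with a symbol (y axis), with 95% intervals over 9 libraries (filled points) and values without F2 replicate 3 (open diamonds). ATP6 (1.53) and ZP3 (0.81) lie highest and APLP2 (-0.60) lowest, and APLP2 moves to -0.77 without F2 replicate 3.

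Fewer genes were detected in F1 on average, a difference that did not pass the test after adjustment. Genes over 0.5 FPKM numbered 11157, 10827 and 10811 in the F1 libraries (mean 10932 ± 195, SD, n = 3), against 11272 ± 191 (SD, n = 6) and 10967 to 11499 in F2 and F3. The exact two-sided permutation test gave p = 0.048, or 0.20 adjusted over 5 measures, and the smallest p it allows is 0.024. F2 replicate 3 had the lowest count of its group. Such counts also depend on sequencing depth, which was not compared between the libraries. The upper quartile of FPKM was 19.7 ± 0.69 in F1 and 21.1 ± 1.28 in F2 and F3, and the 100 most abundant genes took 55.7 ± 1.78% of summed FPKM in F1 and 52.7 ± 2.48% in F2 and F3 (exact permutation test, p = 0.12 each, adjusted p = 0.20). Genes were also classed by mean FPKM over the 9 libraries. The median log2 fold change was -0.17 for the 1315 genes under 1 FPKM and -0.20 for the 5165 between 1 and 10. It was -0.08 for the 4805 between 10 and 100, 0.02 for the 503 between 100 and 1000, and -0.09 for the 41 over 1000. After upper quartile scaling these medians were -0.14, -0.12, 0.01, 0.12 and 0.01. The medians thus did not rise steadily with abundance. The part of the larger share of the top genes in the lower medians of the rarer genes was not tested.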

How the data were processed

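Granulosa layers of 10 follicle stages were sequenced in 30 libraries. The authors removed low-quality, adapter and rRNA reads, mapped to GRCg6a with HISAT2 2.1.0, estimated gene levels with StringTie 1.3.3, and deposited these as FPKM. Sequencing depth cannot be read from these FPKM, so no counting intervals are given, and no count test was run. A gene entered when 2 libraries of F1, F2 or F3 exceeded 0.5 FPKM, and log2(FPKM + 1) was tested with limma 3.58.1 (trend) in R 4.3.3, where a fold understates the change of low genes. Single measures were compared by exact permutation (scipy 1.17.1, 84 arrangements). Figures used matplotlib 3.10.9.

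Named genes were those called with a symbol, the 5 most abundant in F1, ZP3, SPARC, GAPDH and ACTB, and, without symbols, up to 2 identifiers per direction of at least 5 FPKM and no overlap. The other named genes were added after their values were seen, and 1 gene with a symbol is not reported here. Of 19 gene lists, only that of mitochondrially encoded genes was fully paired. Members and lists were chosen with earlier results of these data known. Alternatives covered scaling, pseudocount, filter, trend, Q30 group, replicate block and each library left out. The test was checked on simulated data.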

Additional observations from a re-analysis of the deposited data

Results flagged for a closer look

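Over the 6 libraries of F2 and F3, 41 genes or library measures were examined with Dixon's criterion, and 4 had a library far from the rest. For normally distributed values, chance alone meets this criterion in about 1 group in 20. Untransformed values of pooled ranks need not keep that rate. ATP8 was at 23105 FPKM in F3 replicate 1, with the next at 16587 FPKM. ND2 was at 6021 FPKM in the same library, with the next at 3968 FPKM. SPARC was at 3458 FPKM in F2 replicate 3, with the next at 6137 FPKM. ENSGALG00000042458 was at 19.4 FPKM in F2 replicate 3, with the next at 9.83 FPKM.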

How the results depend on the processing

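The count of DEGs between F1 and F2 with F3 was 6. It was 209 (102 higher and 107 lower) with 1 spread over all 30 libraries, 3 with a term for the Q30 group, 13 in the libraries of lower Q30 alone and 1 in those of higher Q30 alone. Leaving out 1 library gave 1 to 1059 DEGs, or 1 to 978 after upper quartile scaling, where the term for the Q30 group gave 3. Chosen after seeing the data, 3 fits without F2 replicate 3 gave 345 DEGs with the Q30 group, 846 (455 higher and 391 lower) with quantile normalization and 658 with the replicate block. After stage means were removed, coefficients between same-numbered libraries of different ranks ran from -0.43 to 0.28, with 3 of 9 over 0.1. These cannot settle whether the replicate numbers pair the libraries by hen. With the number as a block there were 2 DEGs, and 2 after scaling. Between single ranks that block gave 1 for F1 and F2, 1 for F1 and F3 and 2 for F2 and F3. With only the 6 libraries of a pair there was 1 DEG between F1 and F2 and 193 between F1 and F3. Leaving out 1 library gave 1 to 793 for F1 and F2 and 1 to 6 for F1 and F3. The share of mitochondrial genes differed by -1.14 to 0.55 percentage points with 1 library left out. The cause of these shifts was not tested. Scaling, quantile normalization, pseudocount, filters, trend and 3 separate groups gave 4 to 6 DEGs. Over the 32 genes with a symbol, the 4 printed identifiers and 25 alternatives, no called value changed its sign and 46 uncalled values of 16 genes did. The identifiers called with all 9 libraries were printed for a large fold, so a change of sign was unlikely there. The deposited FPKM hold no read counts, so the limit that depth sets on low genes was not computed.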
